A study of Rattus norvegicus with 25 samples.

Results

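The hippocampus of injured rats given whole thymus was compared with that of injured rats given only the cytosolic factor of thymus, across all expressed genes. By their labels, 10 of the 25 libraries of the series belong to this comparison, 5 in TD-CCI and 5 in TCF-CCI. TD-CCI rats had a controlled cortical impact (CCI) and a thymus supplement, and TCF-CCI rats had the impact and thymus cytosolic factor. Vehicle-CCI rats had the impact and vehicle, and Vehicle-sham rats had a sham operation and vehicle; 5 libraries of each are used here as further levels. The 5 TNF-CCI libraries, from impacted rats given thymus nuclear factor, entered only the filter on low counts, the scaling and the model's estimate of the spread. All were adult male Sprague-Dawley rats of 6 to 7 weeks, and each library was made from polyA RNA of hippocampus. The title of the TCF-CCI libraries names injury without the impact, which their source name gives. No label ties a library to an animal, so the spread reported here is that between libraries and may in part be technical. The sources used here give neither dose nor composition of either supplement, nor the time after injury or the side sampled.

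In a controlled impact a driven tip deforms the cortex through an opening in the skull, and the hippocampus beneath takes part in the response. Microglia, the resident phagocytes, take up debris and induce complement and antigen presentation genes, and astrocytes induce intermediate filaments such as Gfap. Thymus tissue holds nuclear and cytosolic material, of which the cytosolic factor is by name only a part, so the comparison asks whether the hippocampal transcriptome differed between the whole supplement and that part of it. In bulk tissue, fewer cells of a type and less RNA per cell cannot be told apart.

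TD-CCI libraries held 29.2 to 38.0 M counts (M, 1000000) and TCF-CCI libraries 28.7 to 33.4 M. The share of counts on mitochondrial ribosomal RNA averaged 6.59 ± 0.93% in TD-CCI and 7.57 ± 1.69% in TCF-CCI (SD, n = 5 each; two-sided exact permutation p = 0.294, smallest possible 0.00794). All 12 markers fixed for hippocampus were detected well enough to be tested, among them Prox1 of dentate granule neurons and Zbtb20 of hippocampal neurons, and only Spink8 stayed under 1 CPM in each of the 10 libraries (CPM, counts per 1000000 after TMM scaling). Several libraries stood apart. TD-CCI 4 was high in some thalamic genes, TD-CCI 1 in meningeal genes and TCF-CCI 4 in choroid plexus genes. TCF-CCI 2 and TCF-CCI 5 were low in microglia activation, complement and reactive astrocyte genes. Values without them are given beside some of the results they moved, and list medians without 2 pairs of them are plotted for the main lists.

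No gene distinguished the supplements at the threshold used. Of 21064 genes tested with edgeR's quasi-likelihood test, 0 (0%) had a Benjamini-Hochberg adjusted p under 0.05, and the smallest adjusted p was 1.0. At an unadjusted p under 0.05 there were 403 genes (1.91%), of which 237 (1.13%) were higher and 166 (0.788%) lower in TD-CCI. With no difference in any gene, a fraction of about 0.05 would be under that threshold, and the fraction here was smaller. DESeq2 and limma voom also called 0 genes, with 466 and 847 at an unadjusted p under 0.05. Leaving out 1 library moved the edgeR count both ways, from 249 without TD-CCI 4 to 535 without TD-CCI 1. It was 207 without TCF-CCI 2 and TCF-CCI 5, a fit with fewer TCF-CCI libraries. The median log2 fold change of TD-CCI over TCF-CCI over all tested genes was 0.01, and 52.0% of genes lay above 0.

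The spread also sets how large a difference could have gone unseen. Of the 16876 genes with a mean of at least 1 CPM, 14997 (88.9%) had an unadjusted 95% interval of the fold change that lay wholly within 2-fold in either direction. For 8797 genes (52.1%) it lay within 1.5-fold. The median distance from the estimate to either bound was 0.441 on the log2 scale. Library profiles were about as alike between the groups as within them: across genes, which are not independent replicates, Pearson's r of log2 CPM had a median of 0.98 between TD-CCI libraries, 0.981 between TCF-CCI libraries and 0.979 between the groups. Principal components 1 and 2 of the 10 libraries held 27.2% and 20.5% of the variance. TD-CCI 4 was at one end of the first (40.8) and TD-CCI 1 at the other (-29.0), and TCF-CCI 5 (-36.8) and TCF-CCI 2 (-23.3) were lowest on the second.

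**Figure D1:**
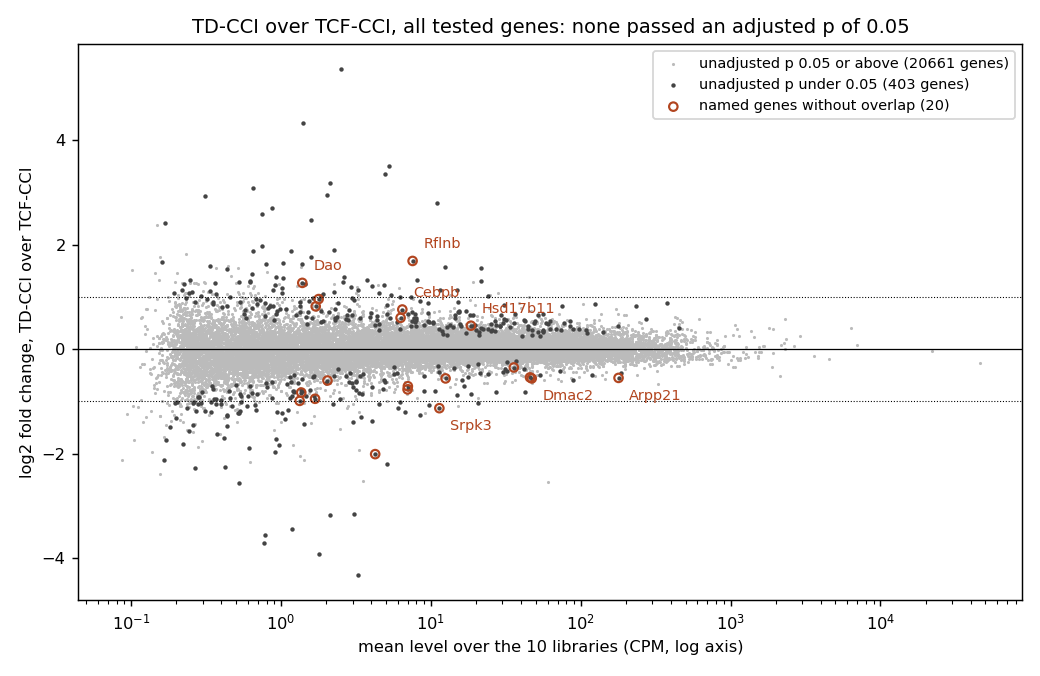
Log2 fold change of TD-CCI over TCF-CCI (vertical axis) against the mean level over the 10 libraries in CPM (log axis) for the 21064 tested genes, with the 403 genes at an unadjusted p under 0.05 as dark points, the 20 named genes without overlap as circles and dotted lines at 2-fold. No gene passed an adjusted p of 0.05, and of the circled genes 7 lie above 0 and 13 below.

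In 142 genes (0.674%) the 5 TD-CCI values lay all above or all below the 5 TCF-CCI values. With interchangeable libraries the probability of this is 0.00794 per gene, and the share seen was smaller, so the count is no excess. TD-CCI was the higher group in 61 of them (0.29%) and the lower in 81 (0.385%). Genes known only by a locus symbol made up 11.5% of those higher (7 of 61) and 35.8% of those lower (29 of 81), against 24.8% of all tested genes. The 20 of smallest p at a mean of at least 1 CPM are named here; their separation chose them, so it supports nothing further, and each had an edgeR adjusted p of 1.0.

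Of these 20, 7 were higher in TD-CCI. Dao encodes the oxidase of D-amino acids such as the glutamate receptor co-agonist D-serine (mRatBN7.2 chromosome 12, 42592342 to 42613046, minus strand). It had 2.39, 1.01, 1.38, 3.51 and 1.49 CPM in TD-CCI 1 to 5, against 0.927, 0.668, 0.627, 0.878 and 0.963 CPM in TCF-CCI 1 to 5. The lowest TD-CCI library was just above the highest TCF-CCI library, and TD-CCI 4 was the highest. The log2 fold change was 1.27 ± 0.32 (SE; 95% interval 0.60 to 1.94).

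Rflnb, a filamin-binding protein (chromosome 10, 60893693 to 60899970), had 4.73, 6.46, 5.96, 6.23 and 34.2 CPM in TD-CCI, against 2.48, 3.49, 4.28, 4.24 and 3.32 CPM in TCF-CCI (log2 fold change 1.69 ± 0.46). TD-CCI 5 was far above the rest, and the other 4 TD-CCI libraries, at 4.73 to 6.46 CPM, lay close above TCF-CCI. Cebpb, a transcription factor of inflammatory and acute phase genes (chromosome 3, 156398035 to 156399466), had 7.18, 8.07, 6.58, 10.1 and 8.59 CPM in TD-CCI, against 5.53, 3.31, 5.99, 4.24 and 4.85 CPM in TCF-CCI. Its log2 fold change was 0.76 ± 0.27. Orai1, the pore subunit of the store-operated calcium channel (chromosome 12, 33533151 to 33548361), had 7.96, 6.77, 7.90, 7.99 and 7.2 CPM in TD-CCI, against 4.97, 4.19, 5.73, 4.42 and 5.58 CPM in TCF-CCI. Both groups were tight for Orai1, with a log2 fold change of 0.60 ± 0.21. The desmosomal Pkp1 (0.82 ± 0.31), the lipid droplet dehydrogenase Hsd17b11 (0.45 ± 0.18) and the protocadherin Pcdhb3 (0.96 ± 0.29) completed the 7. Pcdhb3 belongs to a cluster of similar genes, so its counts are uncertain.

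The other 13 were lower in TD-CCI. Dmac2, an assembly factor of mitochondrial complex I (chromosome 1, 81128760 to 81134810), had 44.9, 36.2, 41.4, 34.1 and 33.2 CPM in TD-CCI, against 47.1, 56.9, 52.0, 50.3 and 74.3 CPM in TCF-CCI. The groups came close at TD-CCI 1 and TCF-CCI 1, and the log2 fold change was -0.56 ± 0.15 (95% interval -0.87 to -0.25). Cux2, a homeodomain factor of upper layer cortical neurons (chromosome 12, 34507723 to 34707581), had 39.9, 33.7, 38.8, 39.8 and 34.4 CPM in TD-CCI, against 54.8, 45.9, 48.0, 53.5 and 69.2 CPM in TCF-CCI. Its log2 fold change was -0.54 ± 0.17. The 15 markers of the cerebral cortex, of which Cux2 is one, summed to 594 to 759 CPM in TD-CCI and 569 to 727 CPM in TCF-CCI, so the list did not move with Cux2.

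Arpp21, a cAMP-regulated phosphoprotein of forebrain neurons (chromosome 8, 112034636 to 112199273), had 153, 142, 151, 117 and 162 CPM in TD-CCI, against 187, 216, 188, 176 and 295 CPM in TCF-CCI. Osbpl10, of the oxysterol-binding protein family (chromosome 8, 114661050 to 114918664), had 10.7, 9.02, 10.2, 10.3 and 10.3 CPM in TD-CCI, against 13.2, 15.4, 12.8, 11.6 and 21.6 CPM in TCF-CCI. For Dmac2, Cux2, Arpp21 and Osbpl10 alike the highest library was TCF-CCI 5. The log2 fold changes were -0.55 ± 0.17 for Arpp21 and -0.56 ± 0.19 for Osbpl10. Without TCF-CCI 2 and TCF-CCI 5 they were -0.35 and -0.32. Srpk3, a kinase of splicing factors best known from muscle (chromosome X, 151510452 to 151515208), had 8.25, 7.98, 10.4, 2.91 and 6.20 CPM in TD-CCI, against 10.8, 19.5, 14.7, 11.5 and 21.6 CPM in TCF-CCI. Its log2 fold change was -1.13 ± 0.40.

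The splicing factor Cwc22 had the narrowest interval of the 20. It averaged 31.4 ± 4.72 CPM in TD-CCI and 40.1 ± 2.12 CPM in TCF-CCI (SD, n = 5 each), with an estimate of -0.35 ± 0.14 on the log2 scale. The ventral forebrain homeobox gene Vax1 (-0.60 ± 0.24), the acyltransferase-like Oacyl (-0.83 ± 0.28) and Proz, a vitamin K-dependent plasma protein of coagulation (-0.95 ± 0.34), had low levels, with group means of 0.981 to 2.46 CPM. The largest estimate was that of LOC103691599 at -2.01 ± 0.55, with 0.705 to 3.07 CPM in TD-CCI and 3.37 to 14.2 CPM in TCF-CCI. LOC108349564 (-0.77 ± 0.23), LOC108351405 (-0.71 ± 0.27) and LOC102556241 (-0.99 ± 0.39) have no gene name in the files.

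**Figure D2:**
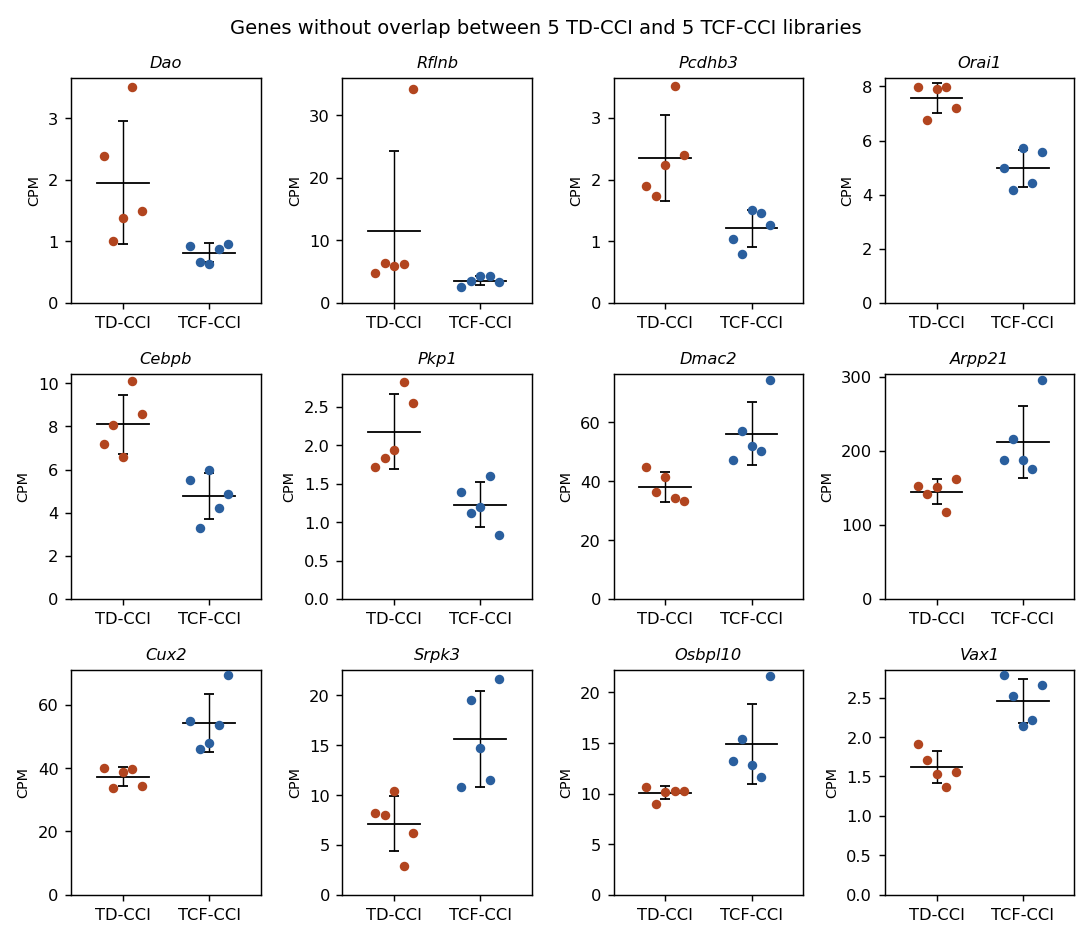
Level in CPM (vertical axis) of genes whose libraries did not overlap, with 1 point per library, TD-CCI left of TCF-CCI, and the mean and SD as bars. In Rflnb the SD bar is cut off at 0, the point at 34.2 CPM is TD-CCI 5, and in Orai1 the TD-CCI points lie between 6.77 and 7.99 CPM, above the TCF-CCI points at 4.19 to 5.73 CPM.

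Each supplement can be set beside Vehicle-CCI, whose libraries both of those comparisons share. Dao was 1.22 ± 0.32 (log2, SE) in TD-CCI over Vehicle-CCI and -0.05 ± 0.33 in TCF-CCI over Vehicle-CCI. Cux2 was -0.07 ± 0.17 in TD-CCI and 0.47 ± 0.17 in TCF-CCI, each over Vehicle-CCI. Osbpl10 was 0.02 ± 0.19 in TD-CCI and 0.57 ± 0.19 in TCF-CCI. For these 3 genes the Vehicle-CCI mean lay close to that of 1 supplement. Dmac2 was -0.29 ± 0.15 in TD-CCI and 0.28 ± 0.15 in TCF-CCI, and Cebpb was 0.23 ± 0.27 in TD-CCI and -0.53 ± 0.27 in TCF-CCI, so Vehicle-CCI lay between the supplements. Its Cebpb values, 4.65 to 11.1 CPM, overlapped both groups. Vehicle-CCI also lay between them in Rflnb (0.99 ± 0.45 in TD-CCI, -0.70 ± 0.46 in TCF-CCI) and Srpk3 (-0.45 ± 0.40, 0.67 ± 0.40). It was close to TD-CCI in Hsd17b11 (0.08 ± 0.18, -0.37 ± 0.18). These genes are examples from the 20, which were chosen because the supplements differed. Where Vehicle-CCI lies therefore does not show which supplement moved a gene.

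The standard injury markers overlapped between the supplements. The astrocyte filament gene Gfap (chromosome 10, 87852891 to 87861631), had 1990, 3260, 2420, 3550 and 2620 CPM in TD-CCI, against 2620, 1190, 2330, 2360 and 788 CPM in TCF-CCI. TCF-CCI 2 and TCF-CCI 5 were the lowest of the 10, and the other 3 TCF-CCI libraries lay among the TD-CCI values. The means were 2770 ± 632 CPM in TD-CCI and 1860 ± 814 CPM in TCF-CCI, beside 2260 ± 1010 CPM in Vehicle-CCI and 1050 ± 392 CPM in Vehicle-sham (SD, n = 5 each). The log2 fold change of TD-CCI over TCF-CCI was 0.58 ± 0.39 (SE; 95% interval -0.22 to 1.37; edgeR adjusted p = 1.0), and 0.17 without TCF-CCI 2 and TCF-CCI 5.

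The phagocyte lysosomal gene Cd68 (chromosome 10, 54381814 to 54383693), had 10.0, 5.70, 5.46, 4.53 and 8.26 CPM in TD-CCI, against 7.25, 2.34, 6.36, 3.27 and 0.864 CPM in TCF-CCI. The groups overlapped, and of these libraries TCF-CCI 5 alone lay within the range of Vehicle-sham, 0.626 to 1.94 CPM. Vehicle-CCI ran from 1.70 to 17.1 CPM, so its lowest library lay within that range too. The log2 fold change was 0.76 ± 0.53 (95% interval -0.34 to 1.85), and 0.26 without TCF-CCI 2 and TCF-CCI 5. Bdnf, the brain-derived neurotrophic factor (chromosome 3, 96165042 to 96215621), had 22.9, 29.8, 22.3, 25.8 and 27.9 CPM in TD-CCI, against 16.9, 22.5, 23.8, 30.4 and 28.1 CPM in TCF-CCI. The ranges lay across each other, with a log2 fold change of 0.08 ± 0.27 (95% interval -0.48 to 0.64).

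Many of the largest estimates were highest in TD-CCI 4 or TCF-CCI 4. At a mean of at least 1 CPM, 96 genes had an estimate past 2-fold, 56 higher and 40 lower in TD-CCI, and in 4 of the 96 the groups did not overlap. Of all 16876 genes at that level, 47 lay without overlap higher in TD-CCI and 57 lower. The highest of the 10 libraries was TD-CCI 4 in 31 of the 56 genes higher in TD-CCI, and TCF-CCI 4 in 18 of the 40 lower. How often each library was highest over all genes was not counted. Without TD-CCI 4 and TCF-CCI 4, 44 of the 96 still had an estimate past 2-fold in the same direction, and 60 did without TCF-CCI 2 and TCF-CCI 5.

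Thalamus borders the hippocampus, and some of its markers were high in TD-CCI 4. Slc17a6, the vesicular glutamate transporter of thalamic neurons (chromosome 1, 101212489 to 101252543), had 10.7, 13.5, 8.08, 115 and 13.6 CPM in TD-CCI, against 6.29, 9.71, 9.46, 14.7 and 14.6 CPM in TCF-CCI. Tcf7l2, a transcription factor of thalamic neurons and of oligodendrocytes, had 92.4 CPM in TD-CCI 4 and 12.5 to 21.2 CPM in the other 9 libraries. The calretinin gene Calb2 had 54.5 CPM in TD-CCI 4, and 4.47 to 8.47 CPM in the other 9. The log2 fold change of Slc17a6 was 1.55 ± 0.54, and 0.19 without TD-CCI 4 and TCF-CCI 4. For Tcf7l2 it was 1.02 ± 0.37, and 0.15 without them. For Calb2 it was 1.14 ± 0.51, and -0.16 without them. The thalamus list, with 16 of 18 members tested, summed to 281 to 551 CPM in TD-CCI and 284 to 302 CPM in TCF-CCI. The median level of its members in TD-CCI 4 was only 0.25 (log2) above their means over the 10 libraries. The median log2 fold change was 0.35, and 0.10 without TD-CCI 4 and TCF-CCI 4. Lef1, another member, had 13.5 CPM in TD-CCI 4.

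Choroid plexus, the epithelium that secretes cerebrospinal fluid, was marked in TCF-CCI 4. Ttr, its transthyretin gene (chromosome 18, 11941791 to 11951008), had 54.3, 6.55, 7.34, 7.55 and 12.3 CPM in TD-CCI, against 8.71, 11.7, 9.75, 476 and 6.71 CPM in TCF-CCI. The potassium channel gene Kcnj13 had 27.0 CPM in TCF-CCI 4 and 0.498 to 2.42 CPM in the other 9 libraries. Tmem72 had 26.7 CPM there and 0.114 to 1.6 CPM in the others, and the prolactin receptor gene Prlr 32.4 CPM against 0.95 to 3.82 CPM. TD-CCI 1 was the highest TD-CCI library for all 4 genes. The log2 fold changes of Ttr, Kcnj13 and Tmem72 were -2.54 ± 1.55, -2.53 ± 1.26 and -3.17 ± 1.48, and turned to 1.12, 0.57 and 1.75 without TD-CCI 4 and TCF-CCI 4. Prlr was at -2.20 ± 0.98, and stayed below 0 at -0.39 without them. The carbonic anhydrase gene Ca12 differed less, at -0.45 ± 0.24, and -0.25 without them. Over the 15 members the median was -1.19 with all libraries and 0.55 without those of replicate 4. The list summed to 178 to 281 CPM in TD-CCI and 176 to 927 CPM in TCF-CCI. Vehicle-CCI held a still higher Ttr value, 3760 CPM.

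The meningeal list was highest in TD-CCI 1, at a relative level of 1.35 (log2), and so were some collagen and matrix genes. Col3a1, a fibrillar collagen (chromosome 9, 47374611 to 47410547), had 57.4, 9.34, 10.8, 11.2 and 13.9 CPM in TD-CCI, against 12.5, 7.19, 15.3, 8.21 and 3.89 CPM in TCF-CCI. Periostin (Postn) had 21.2 CPM in TD-CCI 1 and 1.65 to 5.96 CPM in the other 9 libraries. Aldh1a2, the retinoic acid synthesising enzyme of meninges, had 10.0 CPM in TD-CCI 1 and 1.2 to 3.98 CPM in the others. Without TD-CCI 1 the log2 fold change of Col3a1 was 0.26, that of Postn 0.12 and that of Aldh1a2 0.60, against 1.12 ± 0.45, 1.22 ± 0.48 and 1.14 ± 0.42 with it. Col1a1 was spread more evenly, with 15.6, 6.96, 10.3, 11.1 and 12.8 CPM in TD-CCI, against 8.31, 4.98, 11.4, 9.54 and 4.62 CPM in TCF-CCI. Its log2 fold change was 0.55 ± 0.25, and 0.20 without TCF-CCI 2 and TCF-CCI 5, which held the 2 lowest values. Col1a2 was at 0.71 ± 0.34, and 0.24 without them.

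Of 25 fibroblast and matrix genes, 18 lay above 0 with a median of 0.37, and 4 were higher at an unadjusted p under 0.05 (1.13% of all tested genes were), namely Postn, Col3a1, Col1a1 and Col1a2. The median was 0.18 without TD-CCI 1 and 0.13 without TCF-CCI 2 and TCF-CCI 5. The level of this list was highest in TD-CCI 5 (0.33) and TCF-CCI 3 (0.32). The 13 meningeal genes had a median of 0.34, with 11 above 0 and sums of 201 to 628 CPM in TD-CCI and 138 to 260 CPM in TCF-CCI. That median was -0.15 without TD-CCI 1 and 0.12 without TCF-CCI 2 and TCF-CCI 5. Ptgds, the prostaglandin D synthase of meninges and oligodendrocytes, had 319, 90.3, 122, 174 and 96.2 CPM in TD-CCI, against 115, 75.1, 110, 82.9 and 55.2 CPM in TCF-CCI (log2 fold change 0.87 ± 0.29). TD-CCI 1 was the highest and TCF-CCI 5 the lowest, and the log2 fold change of Ptgds was 0.46 without TD-CCI 1. The part of thalamic, choroid plexus and meningeal RNA in results on other genes was not tested.

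**Figure D3:**
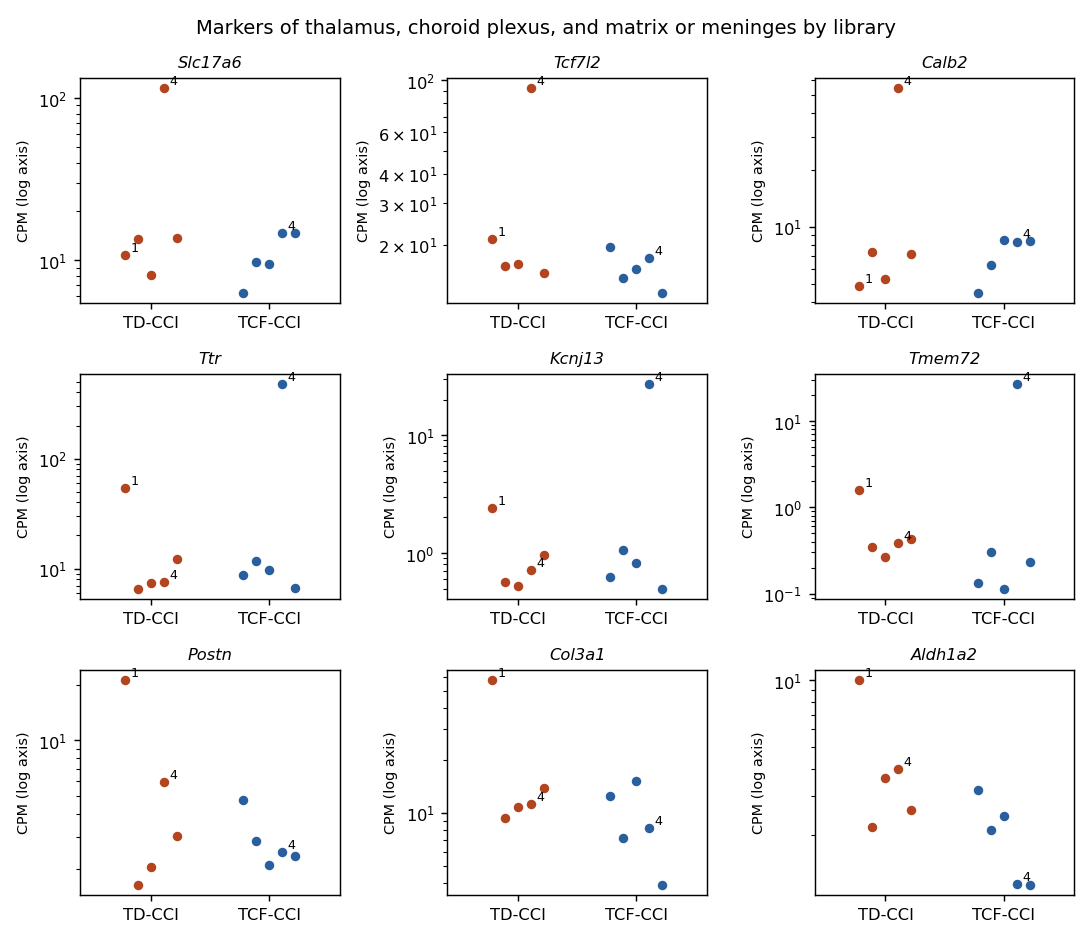
Level in CPM (vertical log axis) of genes of thalamus, choroid plexus and meninges or matrix, with 1 point per library and TD-CCI left of TCF-CCI. TD-CCI 4 holds the point at 115 CPM in Slc17a6, TCF-CCI 4 that at 476 CPM in Ttr and TD-CCI 1 that at 57.4 CPM in Col3a1.

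Gene groups were read next as medians of the log2 fold change over their tested members, beside 0.01 over all genes. Of all tested genes 52.0% lay above 0, and at an unadjusted p under 0.05 1.13% were higher and 0.788% lower. Of 45 lists of pathways, cell types and neighbouring tissues, 40 had a median above 0 and 4 below, and 42 lay within 0.5 of 0. To follow a list by library, its level was taken as the median over members of log2 (CPM + 0.5), centred on each member's mean over the 10 libraries. In 0 of 45 lists did these levels separate the groups. TCF-CCI 5 was the lowest library in 18 lists and TCF-CCI 2 in 12, and TD-CCI 4 was the highest in 12. Without TCF-CCI 2 and TCF-CCI 5, 14 of the 45 medians were at or below 0. Both belong to TCF-CCI and were often the lowest, so leaving them out tends to pull positive medians down. No pair of high TD-CCI libraries was left out to match.

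Microglial and macrophage genes were mostly above 0. In the microglia activation list 23 of 25 genes lay above 0 (52.0% of all tested genes did), with a median of 0.32. At an unadjusted p under 0.05, 1 gene was higher (1.13% of all tested genes were), and 0 passed the adjusted test. That gene was the lysosomal protease cathepsin D (Ctsd, chromosome 1, 197527467 to 197539343), which had 378, 382, 249, 299 and 314 CPM in TD-CCI, against 304, 125, 257, 230 and 165 CPM in TCF-CCI. TCF-CCI 2 and TCF-CCI 5 were the lowest, TCF-CCI 1 and TCF-CCI 3 lay within the TD-CCI range, and the log2 fold change was 0.58 ± 0.25. Cathepsin B (Ctsb, 0.67 ± 0.34), cathepsin Z (Ctsz, 0.59 ± 0.38) and the growth factor Igf1 (0.63 ± 0.36) had similar estimates. The level of this list ran from -0.06 to 0.61 in TD-CCI and from -0.91 to 0.44 in TCF-CCI. Without TCF-CCI 2 and TCF-CCI 5 its median was 0.02. Over Vehicle-CCI the median was -0.10 in TD-CCI and -0.45 in TCF-CCI, 2 comparisons that share the Vehicle-CCI libraries.

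All 8 border macrophage genes lay above 0, with a median of 0.38, and 0.03 without TCF-CCI 2 and TCF-CCI 5. Among them were the hyaluronan receptor gene Lyve1 (0.66 ± 0.35), Mrc1 (0.37 ± 0.30), Cd163 (0.40 ± 0.37) and Pf4 (0.93 ± 0.48), all under 10 CPM. Homeostatic microglial genes had a median of 0.11, with 9 of 13 above 0, and all 23 lysosomal genes lay above 0 with a median of 0.25. These medians were -0.06 and 0.12 without TCF-CCI 2 and TCF-CCI 5.

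Complement marks debris and synapses for uptake. C3, on which its pathways converge (chromosome 9, 2087437 to 2114366), had 51.0, 36.1, 32.5, 72.3 and 58.2 CPM in TD-CCI, against 48.2, 8.65, 44.9, 20.8 and 12.4 CPM in TCF-CCI. The groups overlapped, with a log2 fold change of 0.89 ± 0.51. The receptor subunit gene Itgb2 (0.73 ± 0.47) and C2 (0.65 ± 0.36) showed the same 2 high TCF-CCI libraries, TCF-CCI 1 and TCF-CCI 3. Properdin (Cfp), which stabilises the alternative pathway convertase, ran the other way at -0.82 ± 0.34, with 86.8 CPM in TCF-CCI 1 and 84.7 CPM in TCF-CCI 3 and 21.7 to 36.6 CPM in the other 8 libraries. Without TCF-CCI 2 and TCF-CCI 5, C3 was at 0.38, Itgb2 at 0.26 and C2 at 0.29, while Cfp was at -1.14. In all, 18 of 20 complement genes lay above 0, with a median of 0.40, and 0.03 without TCF-CCI 2 and TCF-CCI 5.

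MHC class II molecules present antigen to T cells, and near-identical copies make their counts uncertain. Cd74, the invariant chain (chromosome 18, 54256757 to 54266003), had 52.0, 22.4, 23.8, 64.5 and 28.0 CPM in TD-CCI, against 37.5, 9.26, 27.2, 10.3 and 6.44 CPM in TCF-CCI. TD-CCI 1 and TD-CCI 4 were the highest, and the other 3 TD-CCI libraries overlapped TCF-CCI. The log2 fold change was 1.07 ± 0.65, and 0.60 without TCF-CCI 2 and TCF-CCI 5. The chains RT1-Db1 (1.22 ± 0.60) and RT1-Ba (0.92 ± 0.62) gave similar values, while RT1-DOb was at -0.77 ± 0.73 under 1 CPM in all but TCF-CCI 3. The median over 9 tested genes was 0.61, with 8 above 0, and 0.34 without TCF-CCI 2 and TCF-CCI 5.

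Of 16 lymphocyte genes 8 were tested, with a median of 0.59 and 6 above 0. Cd8a, the co-receptor of cytotoxic T cells, had 1.18, 0.412, 0.558, 0.220 and 0.862 CPM in TD-CCI, against 0.497, 0.152, 0.200, 0.0908 and 0.166 CPM in TCF-CCI (log2 fold change 1.54 ± 0.67). These are low levels, and the groups overlapped. Cd3e was at 1.47 ± 0.97 with a range of 0.0663 to 1.98 CPM in TD-CCI and 0 to 1.19 CPM in TCF-CCI. Cd4, which rat macrophages also carry, was at 0.74 ± 0.47. The interferon list (median 0.25, 20 of 23 above 0) and the cytokines and chemokines (0.24, 19 of 21) had 0 members at an unadjusted p under 0.05. Their medians were -0.10 and 0.08 without TCF-CCI 2 and TCF-CCI 5.

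Reactive astrocyte genes had a median of 0.42, with 21 of 23 above 0, and 0.13 without TCF-CCI 2 and TCF-CCI 5. The lipocalin Lcn2 (chromosome 3, 15680688 to 15684033) had 1.52, 0.981, 1.06, 1.45 and 1.96 CPM in TD-CCI, against 1.09, 0.546, 0.485, 0.424 and 0.565 CPM in TCF-CCI. Only TCF-CCI 1 reached into the TD-CCI range, and the log2 fold change was 1.16 ± 0.50. The hyaluronan receptor gene Cd44 had 33.3, 31.4, 34.9, 37.1 and 34.7 CPM in TD-CCI, against 35.1, 11.1, 35.6, 22.6 and 10.0 CPM in TCF-CCI, where 2 libraries matched TD-CCI and 3 lay below it (0.58 ± 0.33). The small heat shock gene Hspb1 (0.95 ± 0.57) and Emp1 (0.54 ± 0.33) were the remaining members of smallest p. Without TCF-CCI 2 and TCF-CCI 5, Cd44 was at 0.13, Hspb1 at 0.41 and Emp1 at 0.35, while Lcn2 was at 1.06. Homeostatic astrocyte genes had a median of 0.23, with all 16 intervals within 2-fold; it was 0.05 without TD-CCI 4 and TCF-CCI 4 and 0.04 without TCF-CCI 2 and TCF-CCI 5.

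Myelin genes of oligodendrocytes were above 0 in 19 of 19, with a median of 0.38. Transferrin (Tf, chromosome 8, 103789780 to 103816487), which oligodendrocytes make in quantity, had 525, 368, 409, 776 and 367 CPM in TD-CCI, against 448, 151, 325, 240 and 167 CPM in TCF-CCI. TD-CCI 4 was the highest and only TCF-CCI 1 reached into the TD-CCI range; the log2 fold change was 0.88 ± 0.31. Ndrg1 (0.50 ± 0.23), the tight junction gene Cldn11 (0.56 ± 0.31) and the phosphodiesterase gene Cnp (0.52 ± 0.30) were highest in TD-CCI 4, at 139, 241 and 468 CPM. In TCF-CCI 1, Cldn11 (160 CPM) and Cnp (276 CPM) were above the other 4 TD-CCI libraries. The list median was 0.19 without TD-CCI 4 and TCF-CCI 4, and 0.12 without TCF-CCI 2 and TCF-CCI 5. Thalamic markers moved with TD-CCI 4 as well, and their part in the myelin values was not tested. Oligodendrocyte precursor genes had a median of 0.24 (10 of 13 above 0), and 0.10 and 0.12 without the same pairs of libraries.

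Globin and red cell genes lay on the other side, with 1 of 12 above 0 and a median of -0.49. Hbb, the beta globin gene (chromosome 1, 158250421 to 158251832), had 47.3, 66.4, 52.1, 77.6 and 38.1 CPM in TD-CCI, against 80.5, 142, 36.7, 96.8 and 61.8 CPM in TCF-CCI. The ranges overlapped, and TCF-CCI held both the lowest and the 3 highest values (-0.57 ± 0.55). The globin chaperone gene Ahsp (-1.27 ± 0.57) was under 1 CPM in every library of both groups, and Hba-a3 was at -0.64 ± 0.56. Summed globins ran from 201 to 346 CPM in TD-CCI and from 153 to 520 CPM in TCF-CCI; blood left in the tissue was not measured. Vessel genes were near the other lists, with medians of 0.19 for endothelium (16 of 21 above 0, 3 higher at an unadjusted p under 0.05, as 1.13% of all tested genes were) and 0.24 for mural cells (9 of 13). The endothelial median was 0.10 without either pair of libraries.

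**Figure D4:**
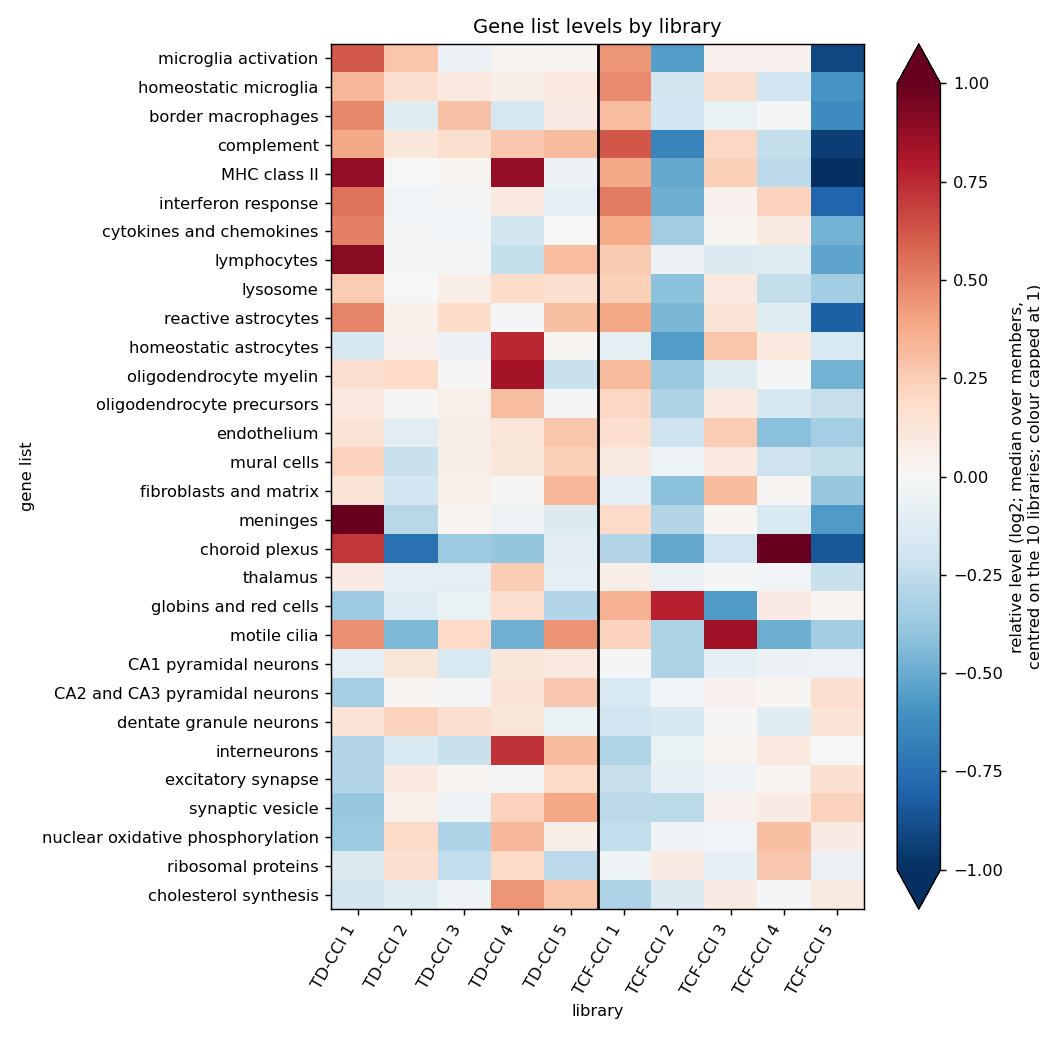
Level of the main gene lists (down the page) in each library (across, TD-CCI left of TCF-CCI), as the median over members of centred log2 (CPM + 0.5), with colours capped at 1 in either direction. TCF-CCI 5 and TCF-CCI 2 show low levels in most immune lists and in the reactive astrocyte list, TD-CCI 1 a high level in the meninges list (1.35) and TCF-CCI 4 in the choroid plexus list (2.76).

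Synaptic and pyramidal neuron lists had medians of 0.03 to 0.13. The excitatory synapse list had a median of 0.04, with 12 of 22 above 0 and 21 of its 22 intervals within 2-fold. Synaptic vesicle genes had a median of 0.08 (15 of 21), CA1 pyramidal genes 0.03 (6 of 11), CA2 and CA3 genes 0.13 (12 of 18) and immediate early genes 0.07 (11 of 21). Dentate granule genes had a median of 0.19 with 11 of 14 above 0. Prox1, the transcription factor of granule neurons (chromosome 13, 101669184 to 101719804), had 19.6, 20.9, 26.4, 16.4 and 28.4 CPM in TD-CCI, against 15.7, 18.4, 13, 11.4 and 12.3 CPM in TCF-CCI. The groups overlapped only through TD-CCI 4 and TCF-CCI 2, and the log2 fold change was 0.65 ± 0.31. Interneuron genes had a median of 0.28 (14 of 19), and -0.01 without TD-CCI 4 and TCF-CCI 4. The adult neurogenesis list was at 0.26 (12 of 15), the neurotrophins and receptors at 0.19 (14 of 16) and the cell cycle at 0.22 (20 of 22). The neurogenesis and cell cycle medians were 0.12 and 0.08 without TCF-CCI 2 and TCF-CCI 5.

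Among the hippocampal check genes 11 of 12 lay above 0, with a median of 0.27, and their sum ran from 903 to 1170 CPM in TD-CCI and from 832 to 925 CPM in TCF-CCI. Cpne4, a copine of CA3 and other neurons, had 35.9, 62.2, 48.9, 58.4 and 87.0 CPM in TD-CCI, against 38.7, 37.5, 38.3, 41.6 and 44.3 CPM in TCF-CCI (0.54 ± 0.24). Here TD-CCI 1 was the lowest of all 10 libraries and the other 4 TD-CCI libraries were the highest. Bcl11b (0.44 ± 0.26), Neurod2 (0.28 ± 0.24), C1ql2 (0.29 ± 0.37), Zbtb20 (0.25 ± 0.21), Fibcd1 (0.18 ± 0.38), Neurod6 (0.16 ± 0.26) and Lmo3 (0.16 ± 0.22) were all within 2 SE of 0. Wfs1, of CA1 pyramidal neurons, was at 0.53 ± 0.52 with 118 CPM in TD-CCI 4, and -0.07 without TD-CCI 4 and TCF-CCI 4. Spink8 was at -0.37 ± 0.44.

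Lists of metabolism and stress gave medians of -0.07 to 0.25. Nuclear oxidative phosphorylation genes had a median of 0.01, with all 25 intervals within 2-fold, and ribosomal protein genes -0.06 (3 of 23 above 0). Cholesterol synthesis was at 0.10 (18 of 21 above 0), antioxidant genes at 0.06 (16 of 20), heat shock at 0.25 (11 of 14), endoplasmic reticulum stress at 0.17 (18 of 19), cell death and p53 at 0.17 (15 of 20) and iron, heme and metal handling at 0.16 (14 of 18). Without TCF-CCI 2 and TCF-CCI 5 the medians were 0.15 for heat shock, 0.06 for endoplasmic reticulum stress, -0.02 for cell death and p53, 0.03 for iron, heme and metal, and -0.01 for antioxidant genes. Glucocorticoid targets, which would move with stress hormones, had a median of 0.14 with 15 of 17 above 0, clock genes -0.07 (5 of 15) and purine nucleotide genes 0.07 (14 of 18). The glucocorticoid median was 0.06 and the purine median -0.04 when those libraries were left out. Motile cilia (14 of 28 above 0), the cerebral cortex (0.03) and olfactory and taste genes (0.02) had medians within 0.05 of 0. Motile cilia were at -0.25 and olfactory and taste genes at -0.22 without the same 2 libraries.

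**Figure D5:**
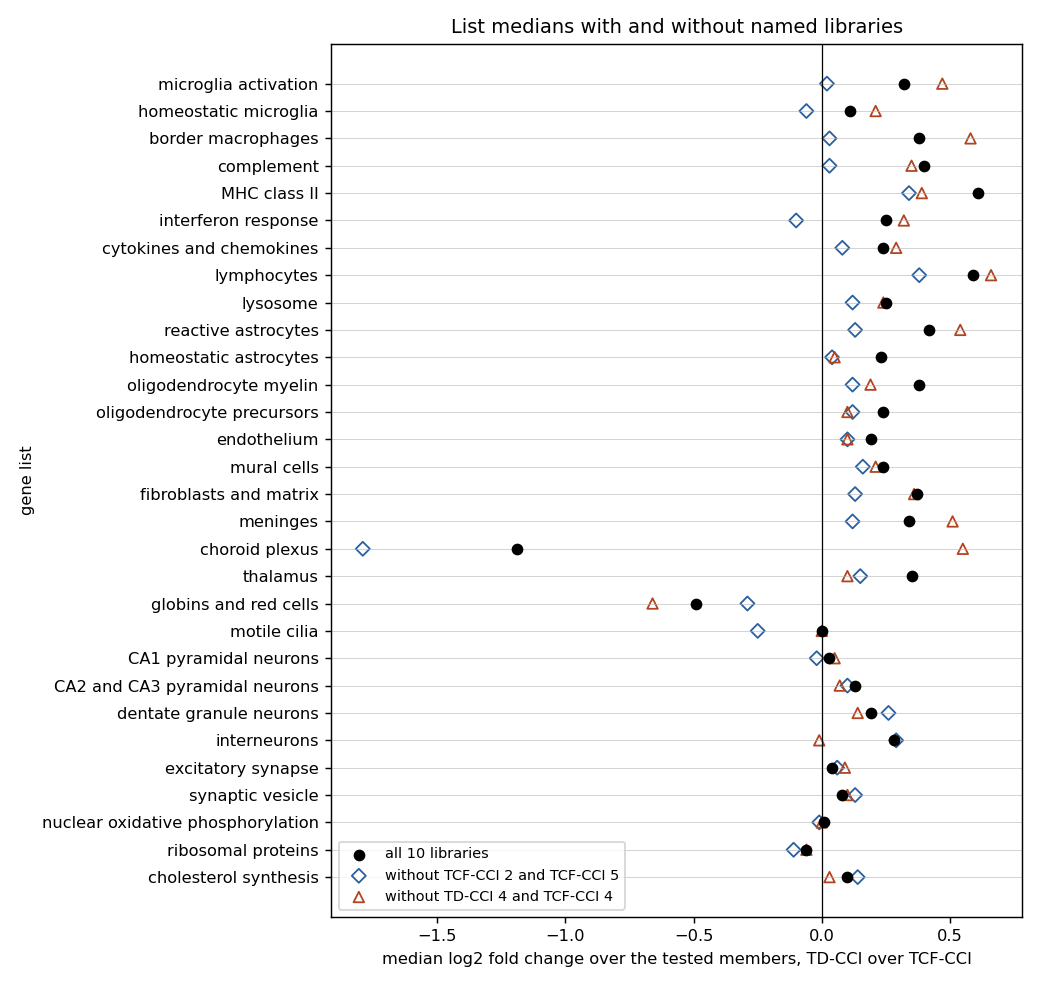
Median log2 fold change of TD-CCI over TCF-CCI (horizontal axis) over the tested members of each gene list (down the page), with all libraries, without TD-CCI 4 and TCF-CCI 4, and without TCF-CCI 2 and TCF-CCI 5. The choroid plexus median moves to 0.55 from -1.19 when both libraries of replicate 4 are left out, and the complement median to 0.03 from 0.40 when TCF-CCI 2 and TCF-CCI 5 are left out.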

How the data were processed

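Whole-number read counts per gene, not normalised, were used as deposited by the authors in 1 table with a column per library. STAR, featureCounts, Salmon, DESeq2 and the build mRatBN7.2 appear in the submitters' processing notes; no source used here gives versions or the strand setting, and overlapping, antisense and near-identical genes are uncertain. Libraries were made with the TECAN Universal Plus mRNA kit, per the labels' protocols. Of 34322 genes, 7 with empty cells were left out. The authors' tables against their control were not used here. Library groups came from the labels.

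All 25 libraries entered 1 edgeR 4.0.16 fit in R 4.3.3 (TMM, filterByExpr, robust quasi-likelihood F test), with TD-CCI minus TCF-CCI as contrast and Benjamini-Hochberg adjustment over 21064 genes at 0.05. Intervals are unadjusted, from the fit's SE. Between libraries of a group, chi-square per degree of freedom over all tested genes was 24.8 to 99.3. It is near 1 for counting error alone, so the libraries differed by more than counting error. Genes of high count weigh most in that ratio, so it does not show how far depth limits genes of low count. Scripts were tested on simulated data. Members and lists were chosen with earlier results of these data known.

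Named genes were up to 20 without overlap at a mean of 1 CPM or more (smallest p first), Gfap, Cd68, Bdnf, the 4 members of smallest p in the 12 lists of largest absolute median, Slc17a6, Tcf7l2, Ttr and the hippocampus markers. Alternatives were DESeq2 size factors, DESeq2 1.42.0, limma 3.58.1 voom with quality weights, other filters, fewer groups, a replicate block, title number or mitochondrial share as covariates, a threshold of 0.10 and leaving out each library. Leaving out TD-CCI 4 with TCF-CCI 4, and TCF-CCI 2 with TCF-CCI 5, was chosen after seeing the data. Lists and counts of genes had no set test. Some genes that the naming rule took are not reported here.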

Additional observations from a re-analysis of the deposited data

Results flagged for a closer look

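In each group of 5 libraries the gap between the highest or lowest library and its nearest neighbour was compared with the group's range, and a gap above 0.71 of the range (Dixon's critical value for 5) marked a library as far from the others. This was done in 262 groups, for the 84 named genes, the 45 list levels and the library measures, and 38 passed. For normally distributed values chance alone marks about 1 in 20 groups, here 13.1, and genes of one list are not independent. CPM values need not be so distributed, and many of the genes were named for their small p or as tissue markers. The 38 are therefore no measure of an excess over chance.

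TD-CCI 4 stood far above the other TD-CCI libraries in the thalamic genes Slc17a6 (115 CPM), Tcf7l2 (92.4), Calb2 (54.5) and Lef1 (13.5), in the myelin genes Cnp (468), Cldn11 (241) and Ndrg1 (139), and in Wfs1 (118) and Hsd17b11 (29.0). It stood far below them in Ca12 (69.8 CPM), and its level of the homeostatic astrocyte list was high at 0.749 (log2).

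TD-CCI 1 stood far above the other TD-CCI libraries in the matrix genes Col3a1 (57.4 CPM) and Postn (21.2), and in the meningeal genes Aldh1a2 (10.0), Foxc1 (9.09) and Slc22a6 (5.18). It also did so in the choroid plexus genes Ttr (54.3), Kcnj13 (2.42) and Tmem72 (1.6) and in RT1-DOb (0.844). Its meninges list level was 1.35 and that of cytokines and chemokines 0.499 (log2).

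Other TD-CCI libraries stood apart in single items. TD-CCI 5 was high in Rflnb (34.2 CPM) and in the cerebral cortex list (0.18, log2). TD-CCI 2 was high in Pf4 (1.80 CPM) and in the iron, heme and metal list (0.181, log2), and low in Osbpl10 (9.02 CPM). TD-CCI 3 was high in Zbtb20 (562 CPM).

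Among TCF-CCI libraries, TCF-CCI 4 stood far above the others in the choroid plexus genes Ttr (476 CPM), Prlr (32.4), Kcnj13 (27.0) and Tmem72 (26.7), with a list level of 2.76 (log2). TCF-CCI 1 was high in Postn (4.77 CPM), Lcn2 (1.09) and Cd8a (0.497), and TCF-CCI 3 in RT1-DOb (2.08). TCF-CCI 2 was low in the CA1 pyramidal list (-0.309, log2). The part of neighbouring tissue in these values was not tested beyond the marker levels given above.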

How the results depend on the processing

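The count of 0 called genes held under every alternative, namely the 10 fits with another tool, filter, scaling, set of libraries or covariate, the threshold of 0.10, both fits chosen after seeing the data and the fits leaving out each library. The count at an unadjusted p under 0.05, 403, was 847 with limma voom, 728 with no filter, 934 with only the 10 libraries, 215 without TD-CCI 4 and TCF-CCI 4, and 207 without TCF-CCI 2 and TCF-CCI 5; leaving out 1 library gave 249 to 535, the lowest without TD-CCI 4. The 142 genes without overlap became 369 and 476 without those pairs and 221 to 388 without 1 library, since fewer libraries overlap less. With the replicate block the count was 488 at an unadjusted p and 0 called. No label says that the numbers pair the libraries. Same-numbered deviations correlated at 0.019 to 0.43, over 0.1 in 3 of 5 pairs. Of the TD-CCI libraries, 2 of 5 correlated best with their own number. These values cannot settle whether same-numbered libraries are paired.

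With limma voom the thalamus median was 0.19 and that of adult neurogenesis 0.10. Without both libraries of replicate 4, the choroid plexus median was 0.55 and the thalamus median 0.10. Without TCF-CCI 2 and TCF-CCI 5, medians were 0.03 for border macrophages, 0.15 for thalamus, 0.08 for cell cycle, 0.03 for iron, heme and metal, -0.02 for cell death and p53 and -0.22 for olfactory and taste genes. Leaving out 1 library gave -1.48 to 0.47 for choroid plexus, 0.09 to 0.44 for thalamus, -0.05 to 0.10 for cerebral cortex, -0.05 to 0.40 for interneurons and -0.67 to 0.16 for olfactory and taste genes. Single genes that reversed, none of them called, were Tmem72 (0.06 with voom), Tmem72 (1.75), Kcnj13 (0.57), Ttr (1.12), Calb2 (-0.16) and Wfs1 (-0.07) without both libraries of replicate 4, and Fibcd1 (-0.02) without TCF-CCI 2 and TCF-CCI 5. Leaving out 1 library gave -3.94 to 1.62 for Tmem72, -3.11 to 0.46 for Kcnj13, -3.60 to 0.93 for Ttr, -0.22 to 1.37 for Calb2, -1.29 to 0.39 for RT1-DOb and -0.05 to 0.17 for Bdnf. The other 76 of 84 genes kept their direction. By a coarse measure, 35 of 45 list medians moved by less than 1 SD of the list's level between libraries. Libraries far from the rest widen that SD, so the count does not show that the medians were stable. Microglia activation (0.32, and 0.02 without TCF-CCI 2 and TCF-CCI 5) and complement (0.40 and 0.03) are among the 35. So is meninges (0.34, and -0.15 without TD-CCI 1). In 13 lists the sign changed under at least 1 setting other than those chosen after seeing the data. Causes were not tested.

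The spread between libraries limits the comparison: at a mean of 1 CPM or more, 11.1% of genes had intervals that reach past 2-fold. The part of depth in these intervals was not tested.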

Other observations

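Outside the rule for named genes, 2 genes were picked after their values were seen. Cpz, a secreted carboxypeptidase, had the smallest unadjusted p of the comparison, and was higher in TD-CCI by 1.44 ± 0.35 on the log2 scale (SE), with an edgeR adjusted p of 1.0. Its mean over the 10 libraries was 0.635 CPM, and its libraries did not overlap between the groups. Cyp26b1, the enzyme that degrades retinoic acid, was higher in TD-CCI by 1.00 ± 0.28 on the log2 scale, also with an edgeR adjusted p of 1.0, and its libraries overlapped.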
